A study of Mus musculus with 6 samples.

Results

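The genes described here present peptides to T cells. They are the mouse H2 genes, most of which belong to the major histocompatibility complex (MHC), and 7 genes that work with their products. Members were chosen by symbol and no measured value entered the rule. Of 45 symbols in the table that start with H2-, 11 pseudogenes were dropped and 34 were kept, and B2m, Cd74, Tap1, Tap2, Tapbp, Ciita and Nlrc5 were added. This gave 41 of the 56691 genes of the table, 37 of them on chromosome 17. The exception to the name is H2-Ke6, which is named for its place beside H2-K1 and encodes a hydroxysteroid dehydrogenase.

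Livers were taken from pregnant females of the C57BL/6J strain, wild type (WT) in genotype, on either of 2 diets. The PF group was fed a high-fructose diet (HFrD) while pregnant (PF1, PF2 and PF3, n = 3), and the PC group was pregnant on normal chow (NC) (PC1, PC2 and PC3, n = 3). All 6 livers came from pregnant WT mice, so the effect of HFrD outside pregnancy is not part of this comparison, which asked how HFrD during pregnancy alters hepatic mRNA levels. RNA came from bulk liver, in which fewer cells of a type and less RNA per cell cannot be told apart.

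MHC class I molecules consist of a heavy chain and beta-2 microglobulin (B2m), sit on nearly every nucleated cell and show peptides from inside the cell to CD8+ T cells. MHC class II molecules consist of an alpha and a beta chain, are made mainly by dendritic cells, B cells and macrophages, and show peptides from the endosome to CD4+ T cells. In the liver, hepatocytes and sinusoidal endothelial cells carry class I, while class II is known from Kupffer cells, dendritic cells, B cells and, at a lower level, the endothelium. Nlrc5 and Ciita are the transactivators of class I and class II genes, and both act through a shared promoter module whose boxes are called X and Y.

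The libraries held 16119145 to 19676361 counts over all genes. Levels are given as FPKM (counts per kilobase of gene and per 1000000 counts of the library) rescaled by TMM factors, which correct for a few genes that fill much of a library. These factors were 1.23, 0.984 and 1.21 in PF1, PF2 and PF3 and 0.850 to 0.908 in PC. Alb alone took 7.97%, 15.8% and 7.56% of counts in the PF libraries and 18.1% to 19.9% in PC, and its part in the factors was not tested. Without the factors the median of all tested genes was 0.39 higher in PF on the log2 scale, and with them 0.02, so a direction that depends on the factors is named as such. Mitochondrially encoded genes took 10.0% to 15.3% of counts in PF and 5.03% to 9.69% in PC. The hepatocyte markers fixed for the tissue check were abundant in every library, with a summed level of 37915, 84761 and 41065 in PF1, PF2 and PF3 and of 108214 to 126293 in PC. Alb made up most of each sum.

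Promoter sequences are shown for 6 members because the class I and class II genes share a promoter module and the results below turn on how these genes differ from each other. They come from RefSeq (build GRCm38.p6), run 5′ to 3′ along the strand of the gene, and span 250 bases before to 50 after the annotated start. H2-K1 had 2 annotated starts there, and the window of the first listed is shown and was used for alignment. Of the 41 members, 34 had an entry in that table. Capitals mark letters that matched a search on both strands: the kappaB enhancer letters GGGGATTCCCC, the pair TGANG and ATTGG with 19 to 23 bases between them (X2 and Y box letters), and the pair GAAA and GAAA with 2 bases between them (interferon response letters). The letters were chosen after the sequences had been read, and overlapping matches of 1 motif are marked together.
H2-K1: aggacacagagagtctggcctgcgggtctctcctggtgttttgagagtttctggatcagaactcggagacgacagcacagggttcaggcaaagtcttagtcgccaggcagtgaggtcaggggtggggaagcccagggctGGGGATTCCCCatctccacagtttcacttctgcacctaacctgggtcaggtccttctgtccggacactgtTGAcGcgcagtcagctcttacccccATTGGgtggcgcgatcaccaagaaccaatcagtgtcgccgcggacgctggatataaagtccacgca
H2-Q4: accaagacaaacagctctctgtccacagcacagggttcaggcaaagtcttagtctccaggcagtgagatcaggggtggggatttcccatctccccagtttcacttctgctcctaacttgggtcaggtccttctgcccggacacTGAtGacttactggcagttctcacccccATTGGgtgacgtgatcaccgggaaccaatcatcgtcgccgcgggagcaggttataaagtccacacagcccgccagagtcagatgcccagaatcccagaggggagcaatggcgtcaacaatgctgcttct
H2-Q10: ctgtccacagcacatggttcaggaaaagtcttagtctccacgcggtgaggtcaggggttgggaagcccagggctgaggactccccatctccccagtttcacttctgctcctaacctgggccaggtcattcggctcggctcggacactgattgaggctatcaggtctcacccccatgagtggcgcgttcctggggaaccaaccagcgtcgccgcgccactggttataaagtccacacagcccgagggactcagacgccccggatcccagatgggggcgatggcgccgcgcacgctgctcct
H2-T23: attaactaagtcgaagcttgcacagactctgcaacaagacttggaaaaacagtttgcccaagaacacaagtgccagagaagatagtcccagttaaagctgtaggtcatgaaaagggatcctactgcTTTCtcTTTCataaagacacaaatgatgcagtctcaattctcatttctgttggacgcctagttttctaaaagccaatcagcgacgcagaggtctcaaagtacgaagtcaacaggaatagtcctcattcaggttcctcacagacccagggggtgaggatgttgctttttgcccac
B2m: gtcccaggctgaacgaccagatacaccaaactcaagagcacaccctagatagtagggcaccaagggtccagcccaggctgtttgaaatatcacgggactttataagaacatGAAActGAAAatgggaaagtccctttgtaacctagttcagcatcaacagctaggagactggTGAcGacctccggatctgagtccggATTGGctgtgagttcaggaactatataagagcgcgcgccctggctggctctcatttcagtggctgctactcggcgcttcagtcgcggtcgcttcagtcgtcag
H2-Aa: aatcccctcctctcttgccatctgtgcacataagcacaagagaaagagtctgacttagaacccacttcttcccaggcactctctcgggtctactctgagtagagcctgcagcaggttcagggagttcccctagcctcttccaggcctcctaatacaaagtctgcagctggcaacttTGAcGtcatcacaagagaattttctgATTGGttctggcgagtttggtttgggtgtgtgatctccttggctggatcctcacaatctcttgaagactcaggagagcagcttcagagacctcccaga

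The windows lie at chr17:34000298-34000597 on the minus strand (H2-K1), chr17:35379367-35379666 on the plus strand (H2-Q4), chr17:35469839-35470138 on the plus strand (H2-Q10), chr17:36032652-36032951 on the minus strand (H2-T23), chr2:122147437-122147736 on the plus strand (B2m) and chr17:34287774-34288073 on the minus strand (H2-Aa). The spaced X2 and Y letters stood in 12 of 34 members, counted by gene, against 470 of all 32851 promoters of the same length, counted by start (1.43%). The 12 comprise class I genes (H2-K1, H2-D1, H2-Q4, H2-Q6, H2-Q7 and H2-M3), class II genes (H2-Aa, H2-Eb1, H2-Eb2, H2-DMb1 and H2-DMb2) and B2m. The kappaB letters stood in H2-K1, H2-D1 and H2-Q6, and in 10 of all 32851 promoters (0.0304%). These letters were chosen after the H2-K1 window, which holds them exactly, had been read, so its match was fixed by the choice. The H2-D1 window is close to that of H2-K1 in sequence, so its match is not independent. The letters of every search were chosen after the sequences had been read, and the H2-Q4 window is close to that of H2-K1 too. The counts of matches, of the spaced X2 and Y letters as well, are thus descriptions and cannot test enrichment. The interferon response letters stood in B2m, H2-T22 and H2-T23 and in 1131 of all promoters (3.44%). Where a window was aligned to that of H2-K1, identity over aligned bases was 88.3% for H2-D1, 84.9% for H2-Q10, 83.5% for H2-Q4 and 57.2% for H2-T23. A match is a description of letters, and the absence of one, as in the window of H2-Q10, says only that these letters do not stand there.

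Expression of the members spanned from the most abundant mRNAs of the liver to none detected. B2m ranked 25th of 10756 tested genes by mean level, H2-Q10 97th, H2-K1 110th, H2-D1 261st, H2-T23 581st and Cd74 1136th. Genes were tested where their mean over the 6 libraries was at least 1 FPKM, a filter that 23 of the 41 members passed. Of the 18 others, 10 had some counts and 8 had 0 counts in all 6 libraries, where a count of 0 allows up to 3 counts in a library. These 8 were H2-M1, H2-M9, H2-M10.1, H2-M10.2, H2-M10.3, H2-M10.4, H2-M10.5 and H2-M11, all from the 12 genes of the M region, the part of the complex farthest from H2-K1.

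**Figure D1:**
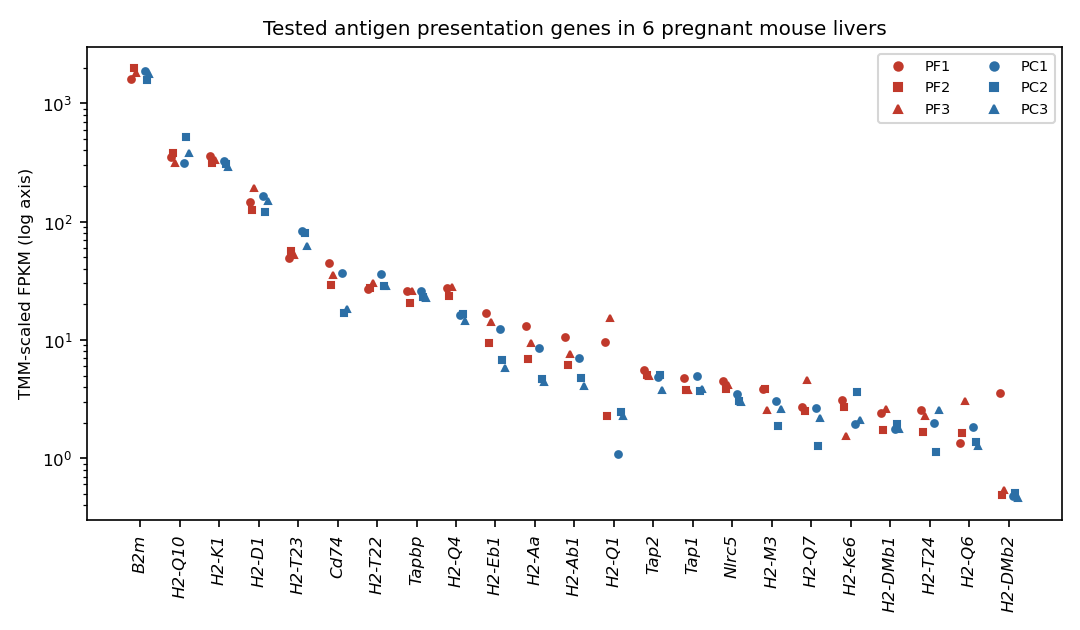
Level of each of the 23 tested members in each library, as TMM-scaled FPKM on a log axis, ordered by mean, with PF in red and PC in blue and 1 point per library. B2m lies between 1572 and 1970 in all 6 libraries, the PF points of H2-Q4 lie above and those of H2-T23 below all PC points, and H2-DMb2 has 1 high point, PF1.

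No member passed an adjusted p of 0.05 with edgeR's quasi-likelihood test, and neither did any other gene of the 10756 (0% called). At an unadjusted p under 0.05, edgeR placed 3 of the 23 tested members higher in PF (H2-Q4, H2-Q1 and Nlrc5), beside 9.13% of all tested genes, and 1 lower (H2-T23), beside 7.9%. DESeq2 called 491 genes (4.56%), among them 2 members, H2-Q4 and H2-Q1, both higher in PF (1.98% of all genes were called higher). With the TMM factors all PF libraries lay above all PC libraries for H2-Q4 and Nlrc5, 2 of 23 members against 11.8% of all genes. All PF libraries lay below all PC libraries for H2-T23, 1 of 23 against 11.1%. The mean was higher in PF for 18 of the 23 members, beside 52.2% of all tested genes. The median log2 difference was 0.30 over the 23 members, 0.12 over 15 class I genes and 0.66 over 6 class II genes, and without PF1 that of all members was 0.14. With library totals in place of TMM factors these medians were 0.69, 0.49 and 1.07, and 180 genes passed (1.67%), among them 1 member, H2-Q4, with 1.5% of all genes called higher and 0.177% lower. At an unadjusted p under 0.05 that scaling placed 11 members higher, beside 31.4% of all genes, and 0 lower, beside 2.1%.

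The classical heavy chains and their light chain, which carry most peptides to CD8+ T cells, had similar levels on either diet. H2-K1 (ENSMUSG00000061232, GRCm39 chr17:34214991-34219321) stood at 360, 314 and 332 in PF1, PF2 and PF3 and at 327, 309 and 292 in PC1, PC2 and PC3. H2-D1 stood at 146, 125 and 193 in PF and at 164, 121 and 150 in PC. B2m (chr2:121978167-121983564) stood at 1593, 1970 and 1799 in PF and at 1889, 1572 and 1779 in PC. The groups overlapped for each of the 3 genes, with the highest library in PF and the range within each group wider than the distance between group means. The log2 difference between PF and PC was 0.12 for H2-K1 (SE 0.20, edgeR adjusted p = 0.802), 0.09 for H2-D1 (SE 0.23, adjusted p = 0.864) and 0.03 for B2m (SE 0.22, adjusted p = 0.960). The summed level of both heavy chains was 490 ± 44.7 in PF and 454 ± 32.4 in PC (SD, n = 3 each), a log2 ratio of 0.11 that was 0.49 on the FPKM scale without TMM factors. B2m was at 3.15 to 4.48 times that sum in PF and at 3.66 to 4.02 times in PC.

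The Q region holds class I genes that lie beyond H2-D1 on chromosome 17 and that differ less between mouse strains than the classical chains do. H2-Q4 (ENSMUSG00000035929, GRCm39 chr17:35598593-35604266) had the smallest p of all members. Its level was 27.5, 23.7 and 27.9 in PF1, PF2 and PF3 and 16.3, 16.6 and 14.6 in PC1, PC2 and PC3. All PF livers were higher than all PC livers, with 26.4 ± 2.33 against 15.8 ± 1.06 (SD, n = 3 each) and no library apart from its group. The log2 difference was 0.74 (SE 0.14, 1.67-fold), with an adjusted p = 0.132 by edgeR and of 0.00158 by DESeq2. Relative to H2-K1, H2-Q4 was 0.0765, 0.0755 and 0.0843 in the PF libraries and 0.0497 to 0.0537 in PC, a ratio that no scaling factor touches. Without PF2 the edgeR adjusted p was 0.0329, and with library totals alone it was 0.0497, so the call by edgeR depends on these settings while the direction was the same in all 15 alternatives.

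H2-Q1 (ENSMUSG00000079507, GRCm39 chr17:35539381-35544075) had the largest fold of the class I genes. It stood at 9.64, 2.29 and 15.2 in PF1, PF2 and PF3 and at 1.08, 2.44 and 2.28 in PC1, PC2 and PC3. PF1 and PF3 were far above the PC livers, while PF2 lay among them. The log2 difference was 2.22 (SE 0.64, 4.67-fold), with an adjusted p = 0.185 by edgeR, 0.00702 by DESeq2 and 0.0136 by edgeR without PF2. PF1 and PF3 were also the libraries with the lowest share of Alb counts, and the part of this in H2-Q1 was not tested. Their hepatocyte marker sum was the lowest too, but Alb made up most of that sum. Of the 10 hepatocyte markers 8 had lower means in PF, with a median log2 difference of -0.68, or -0.29 with library totals alone. DESeq2 called 5 lower, beside 2.58% of all genes. All PF libraries lay below all PC libraries for 6, beside 11.1%, and above them for Ttr, beside 11.8%. Apoa1, like Alb, was lowest in PF1 and PF3, at 2610, 4863 and 2966 in PF1, PF2 and PF3. Within PF, Ttr was lowest in PF2, at 2748, 1866 and 3271.

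The remaining Q genes had higher means in PF except for the most abundant of them. H2-Q7 and H2-Q6 encode the Qa-2 antigen, a class I molecule held in the membrane by a lipid anchor. H2-Q7 stood at 2.72, 2.49 and 4.59 in PF and 2.65, 1.27 and 2.201 in PC, with PF3 apart from the rest and the other PF libraries close to the highest PC library. Its log2 difference was 0.68 (SE 0.33, edgeR adjusted p = 0.349). H2-Q6 had the same high library, PF3 at 3.06, with 1.26 to 1.85 in the 5 others. H2-Q2 was below the filter at 10, 2 and 22 counts in PF and 6, 2 and 5 in PC. H2-Q10, which encodes a class I molecule that hepatocytes secrete, stood at 351, 380 and 314 in PF and at 314, 517 and 377 in PC, and so ranged from the level of H2-K1 to above it. Its log2 difference of -0.21 (SE 0.27, adjusted p = 0.733) was 0.15 with library totals alone. Reads of these close relatives can be shared or lost in counting, so the division among Q genes, H2-K1 and H2-D1 is uncertain.

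After scaling by the TMM factors, H2-T23 was the only tested member with all PF libraries below all PC libraries. It encodes Qa-1, which presents leader peptides of other class I molecules to the CD94/NKG2 receptors of natural killer cells. H2-T23 (ENSMUSG00000067212, GRCm39 chr17:36340665-36343747) stood at 49.7, 57.0 and 52.4 in PF1, PF2 and PF3 and at 82.7, 79.8 and 62.8 in PC1, PC2 and PC3. The PC livers were the more variable, and PC3 was the closest to PF. The log2 difference was -0.50 (SE 0.17, 1.42-fold lower), with an adjusted p = 0.222 by edgeR and 0.0847 by DESeq2. With library totals alone the log2 difference was -0.14 (edgeR adjusted p = 0.632), still below the median of all genes at 0.39. Against those totals PC3 (3172 of 19676361 counts) no longer lay above PF2 (2718 of 16770671). The separation of the groups in level thus rests on the factors. Relative to H2-K1, H2-T23 was 0.138, 0.182 and 0.158 in PF and 0.253, 0.259 and 0.215 in PC. The proportion of H2-T23 to the classical chain thus did not overlap between diets.

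The other T and M genes showed no difference beyond the spread of libraries. H2-T22, whose product is bound by a class of gamma delta T cells, was at 26.8 to 30.5 in PF and 28.4 to 36.4 in PC (log2 difference -0.14, or 0.24 with library totals alone). H2-T24 ranged from 1.67 to 2.54 in PF and from 1.14 to 2.54 in PC. H2-M3, which presents peptides that begin with N-formylmethionine, was at 3.85, 3.83 and 2.57 in PF and 3.04, 1.86 and 2.59 in PC. Its PF1 and PF2 were above all PC libraries but PF3 was not, and the log2 difference was 0.45 (SE 0.27, edgeR adjusted p = 0.440). H2-M2 had 9, 6 and 5 counts in PF and 7, 1 and 0 in PC. H2-M5 had 2 to 4 counts in PF and at most 1 in PC, H2-M10.6 had 3 counts in PF3 only, and H2-T3 had 1 count in PC1 and in PC3, all too few to compare. H2-Ke6, the dehydrogenase, was at 1.54 to 3.10 in PF and 1.95 to 3.597 in PC.

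**Figure D2:**
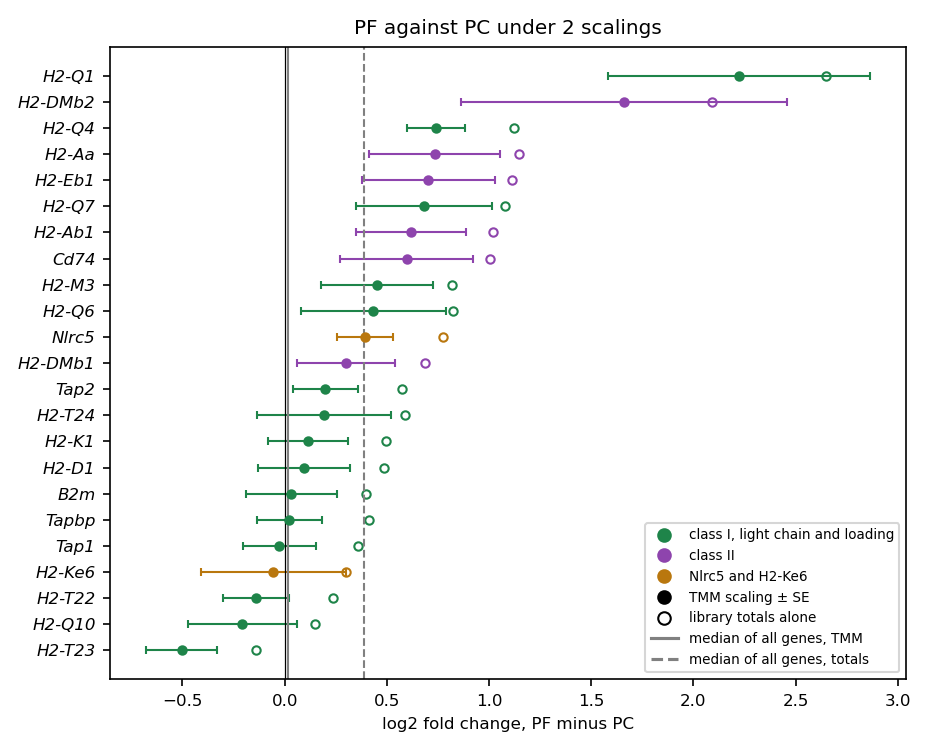
Log2 difference of PF from PC for the 23 tested members, with filled points and bars for edgeR with TMM factors ± SE, open points for library totals alone, and vertical lines for the median of all tested genes under each scaling (0.02 and 0.39). H2-Q1 and H2-Q4 lie to the right, H2-T23 lies left of both lines, the class II genes in purple are all right of the TMM line, and H2-K1, H2-D1, B2m, Tapbp and Tap1 lie close to it.

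Peptides reach class I molecules through a transporter made of Tap1 and Tap2, to which tapasin (Tapbp) tethers the empty heavy chain. Tap1 stood at 4.81, 3.74 and 3.76 in PF and 4.98, 3.69 and 3.87 in PC. Tap2 stood at 5.61, 5.05 and 4.94 in PF and 4.86, 5.01 and 3.74 in PC. Tapbp stood at 26.1, 20.6 and 25.9 in PF and 26.0, 23.02 and 22.5 in PC. All 3 overlapped between diets, and edgeR gave log2 differences of -0.03 (SE 0.18, adjusted p = 0.961), 0.20 (SE 0.16, adjusted p = 0.565) and 0.02 (SE 0.16, adjusted p = 0.960). Tap1 overlaps Psmb9 on the opposite strand and Tapbp overlaps Zbtb22 on its own strand, and whether counting used strand is not given in the sources used here, so their counts may include reads of these neighbours.

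The genes that cut peptides and those that fold class I molecules differed from each other in sign. The immunoproteasome subunits and the PA28 activator, which interferon induces to make peptides for class I, had higher means in PF for 5 of 5 tested genes with a median log2 difference of 0.205. None passed the test. Psmb10 was at 13.9, 13.5 and 12.8 in PF and 12.5, 11.8 and 9.94 in PC. Of 9 tested genes for loading chaperones and peptide trimming, 7 were lower in PF and the median was -0.55, or -0.17 with library totals alone. DESeq2 called 4 of them lower (2.58% of all genes were called lower) and edgeR called none. These were Hspa5, the ER chaperone BiP (log2 difference -1.06, DESeq2 adjusted p = 0.0138), Calr, calreticulin (-0.86, 0.0201), Sec61a1, a subunit of the ER translocon (-0.86, 0.0358), and Pdia3, the disulphide isomerase that pairs with tapasin (-0.75, 0.0403). All 4 serve ER folding or translocation in general and not class I alone. Calr, for example, was at 213, 345 and 271 in PF and 542, 401 and 560 in PC, with no overlap.

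Class II genes had higher means in PF in all 6 tested members, but none passed the test and each overlapped between diets. H2-Aa, the alpha chain of the I-A molecule (ENSMUSG00000036594, GRCm39 chr17:34501718-34506797), stood at 13.0, 6.86 and 9.40 in PF1, PF2 and PF3 and at 8.51, 4.69 and 4.45 in PC1, PC2 and PC3. H2-Ab1, its beta chain, stood at 10.58, 6.14 and 7.53 in PF and at 6.98, 4.78 and 4.06 in PC. H2-Eb1, the beta chain of the I-E molecule, stood at 16.8, 9.51 and 14.2 in PF and at 12.4, 6.77 and 5.83 in PC. All 3 genes put the libraries in the same order, which ran PF1, PF3, PC1, PF2, PC2 and PC3 from high to low. H2-Eb1 has no functional partner in C57BL/6 mice, and the alpha chain gene, H2-Ea-ps, had 0 counts in all 6 libraries.

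Cd74, the invariant chain that guards the groove of new class II molecules, had much the same order, except that PC1 was above PF3 and PC3 above PC2. It stood at 44.6, 29.1 and 35.4 in PF and at 37.1, 17.0 and 18.1 in PC, and its ratio to the summed H2-Aa, H2-Ab1 and H2-Eb1 stayed within 1.04 and 1.33 in all 6 libraries. The log2 differences were 0.73 for H2-Aa (SE 0.32, edgeR adjusted p = 0.303), 0.62 for H2-Ab1 (SE 0.27, 0.301), 0.70 for H2-Eb1 (SE 0.33, 0.329) and 0.60 for Cd74 (SE 0.33, 0.393). The sum of the 3 chains was 31.4 ± 8.94 in PF and 19.5 ± 7.31 in PC (SD, n = 3 each), a log2 ratio of 0.69 that ranged from 0.46 without PF1 to 1.04 without PC1. PC1 is thus the library on which the overlap rests, and PF1 the one that adds most to the difference.

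Among the peptide exchange genes of class II, some were high in 1 library and none had the library order of the chains. H2-DMa and H2-DMb1 encode the DM molecule, which frees the groove for peptides. H2-DMa, at 0.906, 1.12 and 1.03 in PF and 0.820, 0.424 and 0.498 in PC, was below the filter, and all PF libraries were above PC. It overlaps Brd2, which had 8800 counts over the 6 libraries against its 299, on the opposite strand. H2-DMb1 was at 1.73 to 2.62 in PF and 1.76 to 1.97 in PC (log2 difference 0.30, SE 0.24, edgeR adjusted p = 0.564).

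H2-DMb2, a second DM beta chain, stood at 3.55, 0.486 and 0.536 in PF1, PF2 and PF3 and at 0.478, 0.509 and 0.459 in PC. Only PF1 was high, and its log2 difference of 1.66 (SE 0.80, edgeR adjusted p = 0.343) was 0.09 without that library. H2-Oa and H2-Ob encode the DO molecule, which restrains DM and is best known from B cells. H2-Ob stood at 2.03, 0.563 and 0.418 in PF and 0.275, 0.910 and 0.308 in PC, and H2-Oa had 27, 4 and 5 counts in PF and 3, 8 and 4 in PC. In both genes PF1 was the highest library and PC2 the next. H2-Eb2, a further beta chain, had 18 counts in PF1 and 1 to 4 in each of the others.

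**Figure D3:**
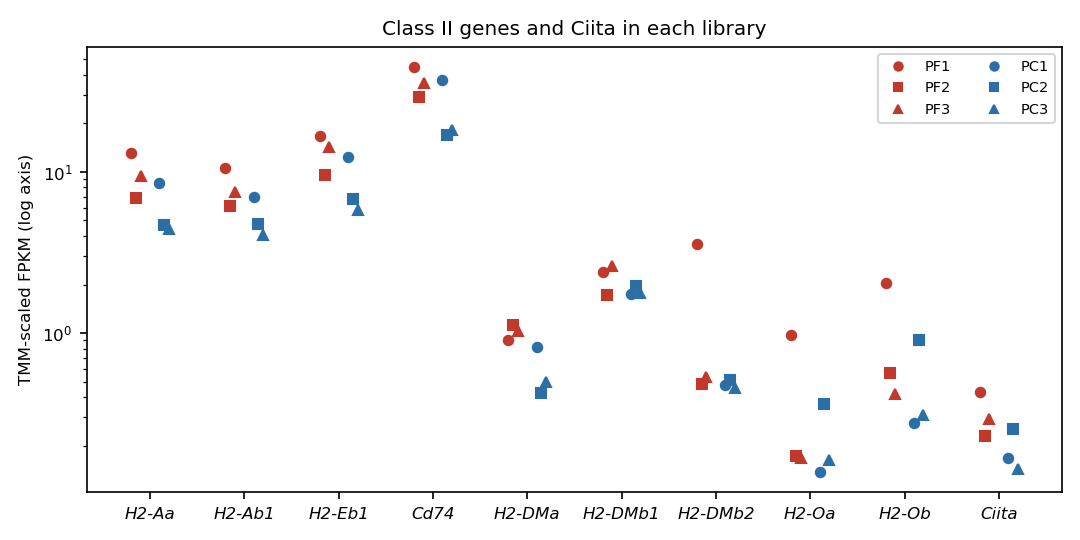
Level of 9 class II genes and Ciita in each library, as TMM-scaled FPKM on a log axis, with PF in red and PC in blue. PF1 and PC1 are the highest of their groups for H2-Aa, H2-Ab1, H2-Eb1 and Cd74, whereas for H2-DMb2, H2-Oa and H2-Ob PF1 alone stands far above the rest and PC2 leads among PC.

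Markers of the cells that carry class II were read in the same libraries, and their part in these results was not tested. The B cell markers had their highest sum in PF1 (53.8) and the next in PC2 (37.6), with 9.91 to 19.2 in the 4 others, and PF1 and PC2 were also the highest libraries for H2-Ob and H2-Oa. Ighm, the immunoglobulin heavy chain, made up much of each sum. Other B cell markers were high in PF1 above all, with Cd79a at 6.02 in PF1 and 0.786 to 2.05 elsewhere, and Ms4a1 at 1.71 against 0.0784 to 0.339. T and NK cell markers summed to 6.65, 5.52 and 4.56 in PF and to 3.35, 4.29 and 2.19 in PC. All PF libraries were thus above all PC libraries in this sum, and 1 of the 10 genes was tested. Kupffer cell markers summed to 153, 194 and 254 in PF1, PF2 and PF3 and to 260, 171 and 208 in PC1, PC2 and PC3, an order unlike that of the class II chains in PF. Of the 11 tested Kupffer genes 2 had higher means in PF, beside 52.2% of all tested genes. Their median log2 difference was -0.10 but 0.28 with library totals alone, so its direction depends on the factors. Marco was the 1 called lower by DESeq2 (log2 difference -1.34, adjusted p = 0.00675), as were 2.58% of all genes.

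Dendritic cell markers summed to 57.0 to 64.0 in PF and 59.2 to 62.0 in PC, but Cst3, which many cells express, made up 52.0 to 58.7 of each sum. The 9 others summed to 4.93, 4.97 and 5.35 in PF1, PF2 and PF3 and to 3.45, 3.44 and 3.06 in PC1, PC2 and PC3, a log2 ratio of 0.62 with all PF libraries above all PC libraries. Each of the 9 overlapped between diets on its own, and only Clec9a among them was tested (log2 difference 0.91). The sum without Cst3 thus had the higher mean in PF, as had that of the class II chains. The class II sums, however, overlapped between diets and had another order of libraries. Cst3 belonged to the list as fixed and was set apart after the values had been seen, and the sum with it overlapped between diets. Sinusoidal endothelial markers were at 35.4 to 44.6 in PF and 32.8 to 45.4 in PC, with PF1 and PC1 the highest of their groups, as for the class II chains. Monocyte and neutrophil markers were at 10.51 to 18.98 in PF and 8.80 to 18.9 in PC. No gene of these 3 lists was called by edgeR or DESeq2.

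**Figure D4:**
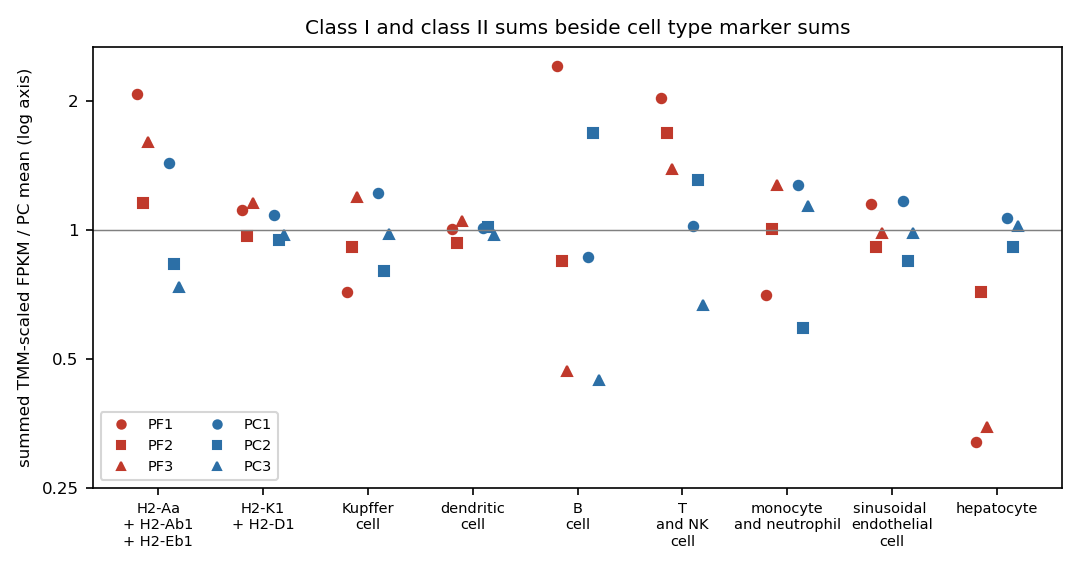
Summed TMM-scaled FPKM of the class II chains, of H2-K1 plus H2-D1 and of 7 cell type marker lists in each library, divided by the mean of the PC libraries, on a log axis. PF1 is highest for the class II chains (40.4, against 14.3 to 27.8 in PC) and for B cell markers, and the heavy chains of class I stay near 1 in all libraries. The hepatocyte marker sum, most of which is Alb, is lowest in PF1 and PF3.

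The endosomal enzymes that prepare peptides and trim Cd74 did not share the sign of the class II chains. Of 11 tested genes 8 were lower in PF, with a median log2 difference of -0.18 that was 0.21 with library totals alone. Sppl2a, the protease that clears the last Cd74 fragment, was at 11.5, 13.2 and 14.8 in PF and 24.1, 15.8 and 23.6 in PC (log2 difference -0.68, SE 0.21, edgeR adjusted p = 0.198). Ctsz, cathepsin Z, was at 81.8, 179 and 111 in PF and 219, 222 and 219 in PC (-0.83, SE 0.29, adjusted p = 0.222). Neither overlapped between diets, and Ctsb, cathepsin B, did not either (-0.31, SE 0.20, edgeR adjusted p = 0.48). The Ctsb difference was 0.06 with library totals alone, so its direction depends on the factors. All PF libraries were thus below all PC libraries for 3 of the 11 genes, beside 11.1% of all tested genes, and DESeq2 called none of the 3.

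Of the transactivators, Nlrc5 was higher in all PF libraries by a small margin. Nlrc5 (ENSMUSG00000074151, GRCm39 chr8:95160984-95253900) stood at 4.53, 3.87 and 4.16 in PF1, PF2 and PF3 and at 3.49, 3.08 and 2.99 in PC1, PC2 and PC3. The means were 4.18 ± 0.33 and 3.18 ± 0.27 (SD, n = 3 each), a log2 difference of 0.39 (SE 0.14, 1.31-fold) with an adjusted p = 0.222 by edgeR and 0.224 by DESeq2. It overlaps 9330175E14Rik on the opposite strand, which had 369 counts over the 6 libraries against its 3375. Within each group the libraries stood in the same order as for H2-K1. PF1 was highest and PF2 lowest in PF, and PC1 was highest and PC3 lowest in PC. The class II chains H2-Aa, H2-Ab1 and H2-Eb1 had this order as well, while H2-D1 and B2m did not. Ciita was below the filter at 0.428, 0.229 and 0.295 in PF (81, 36 and 60 counts) and 0.168, 0.253 and 0.144 in PC (25, 38 and 24 counts). PF1 and PF3 were above all PC libraries and PF2 was not, and where edgeR's own filter kept the gene its log2 difference was 0.72 (SE 0.35, adjusted p = 0.363). Ciita overlaps Dexi, which had 3529 counts against its 264, on the opposite strand.

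Nlrc5 and Ciita work on a platform of RFX, CREB and NF-Y proteins that binds the X and Y boxes, and interferon gamma induces both. Of 15 tested genes of this platform and of interferon signalling, 12 had higher means in PF, with a median log2 difference of 0.17, and at an unadjusted p under 0.05 edgeR placed 3 higher and 1 lower, beside 9.13% and 7.9% of all genes. The 3 were Nfyb, an NF-Y subunit (log2 difference 0.76, edgeR adjusted p = 0.181), Creb1 (0.44, 0.190) and Rfx5 (0.61, 0.225), and in each all PF libraries were above all PC libraries, as in 11.8% of all genes. Nfyb was at 9.36, 7.04 and 10.9 in PF and 4.80, 6.48 and 4.83 in PC. Ifngr2, a chain of the interferon gamma receptor, was at 2.89, 2.73 and 2.50 in PF and 5.13, 3.796 and 4.54 in PC, and DESeq2 called it lower, as it did 2.58% of all genes (log2 difference -0.73, adjusted p = 0.0201).

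Genes that interferon induces beside the MHC included some higher and some lower in PF. Of 21 tested, 14 had higher means in PF (median log2 difference 0.17). Gbp7, a guanylate-binding GTPase, was at 5.49, 4.16 and 4.16 in PF and 2.92, 2.75 and 3.21 in PC, and Iigp1, an immunity-related GTPase, was at 56.5, 52.3 and 51.5 in PF and 92.9, 68.6 and 89.4 in PC. Iigp1 was called lower by DESeq2 (adjusted p = 0.0166) and Gbp7 was not called (0.0579). Of 7 tested class I-like genes outside H2, 4 had higher means in PF. Azgp1, a secreted class I-like glycoprotein, was at 552, 589 and 589 in PF and 908, 739 and 912 in PC (log2 difference -0.57, DESeq2 adjusted p = 0.0195). Raet1e and Raet1d, ligands of the NKG2D receptor, were highest in PF1 at 5.27 and 19.4 against 0.557 to 1.61 and 1.25 to 6.21 elsewhere. The 3 tested costimulation genes, Icam1, Cd86 and Cd274, all had higher means in PF (log2 differences 0.41, 0.44 and 0.22) and none was called.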

How the data were processed

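Poly(A) RNA of 6 livers was sequenced, and libraries were put in their groups by title and treatment in the labels, which do not say which share a litter, day or batch. The study describes its n as biological replicates, and p-values weigh the difference between diets only against the variation among these livers. The deposited table gives a raw whole-number count for every gene and library. It also gives FPKM, which the authors made by dividing each count by gene length in kilobases and by the library total in units of 1000000. GRCm39, HTSeq 0.6.1, HISAT2 2.2.1, cutadapt 1.9.1 and DESeq2 are listed in the submitters' processing notes without settings.

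Symbols were matched for 52073 of 56691 identifiers, and pseudogenes were recognised by GENCODE biotype. Genes averaging 1 FPKM or more were tested on counts with edgeR (4.0.16 under R 4.3.3) by quasi-likelihood, two-sided, with TMM factors and without covariates. P-values were adjusted by Benjamini-Hochberg across every tested gene and read at 0.05. Standard errors are the log2 difference divided by the square root of F. DESeq2 (1.42.0) and limma (3.58.1) were alternatives, beside other scalings, filters, a replicate block and leaving out each library. Levels printed are FPKM divided by the TMM factor. Windows were aligned with Biopython (1.88). The members, the lists of other genes and their tests were chosen with earlier results of these data known. Values per library were given for the classical class I chains, the class II chains, B2m, Cd74, Tap1, Tap2, Tapbp, Nlrc5 and Ciita and for 6 further tested members of smallest p, and up to 4 genes of smallest p were named from each other list. Marker genes named singly, the dendritic cell sum without Cst3, Tap1 and Tapbp neighbours, H2-DMa, H2-Ob, H2-Q10 and Psmb10 values were chosen after their values were seen.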

Additional observations from a re-analysis of the deposited data

How the results depend on the processing

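The number of genes passing 5% was 0 with edgeR and TMM factors and also with DESeq2's size factors, upper-quartile factors and the replicate block. It was 491 with DESeq2 (213 higher, 278 lower), 180 with library totals alone (161 higher, 19 lower), 1 with filterByExpr, 555 with no filter, 4 and 2 with limma on log2(FPKM + 1) and log2(FPKM + 0.1), and 0 to 403 when a library was left out, the highest without PF2. Members passing numbered 2 with DESeq2, 1 with library totals alone (H2-Q4), 1 with no filter (H2-Q1, edgeR adjusted p = 0.00174) and 0 to 2 when a library was left out, the 2 being H2-Q4 and H2-Q1 without PF2. Over the 15 alternatives the adjusted p ranged from 0.00158 to 0.501 for H2-Q4 and from 0.00174 to 0.543 for H2-Q1. No other member passed in any of them.

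The median log2 difference of the members, 0.30, was 0.69 with library totals alone, 0.47 and 0.61 with the limma fits, and 0.14 to 0.36 when a library was left out, the lowest without PF1. The class I median of 0.12 was 0.49, 0.44 and 0.48 under the same 3 settings and 0.0131 (without PC2) to 0.21 when a library was left out. The class II median of 0.66 was 0.40 without PF1 and 1.08 without PC1. The summed class I chains had a log2 ratio of 0.49 on FPKM as deposited. Direction was kept by 14 of the 23 tested members in all 15 alternatives. It turned with library totals alone and both limma fits for H2-T22 (0.24, 0.22 and 0.23), H2-Q10 (0.15, 0.18 and 0.18), H2-Ke6 (0.30, 0.21 and 0.29) and Tap1 (0.36, 0.28 and 0.33), for Tap1 also with upper-quartile factors (0.0109), and for Tapbp with filterByExpr (-0.00296) and no filter (-0.00647). When a library was left out, the ranges that crossed 0 were -0.00399 (without PF3) to 0.66 for H2-Q6, -0.36 to 0.0131 (without PC2) for H2-Q10, -0.0669 (without PC2) to 0.47 for H2-T24, -0.0943 (without PF3) to 0.22 for H2-D1, -0.26 to 0.28 (without PC2) for H2-Ke6, -0.0339 (without PF1) to 0.12 for Tapbp, -0.0494 (without PF2) to 0.11 for B2m and -0.16 to 0.12 (without PC1) for Tap1. The causes were not tested beyond what each setting changes by construction.

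The labels do not say whether the replicate numbers pair the samples. Deviations from the group means correlated by -0.15, 0.25 and 0.09 for libraries numbered 1, 2 and 3 in both groups. Pairs of unlike number ranged from -0.31 (PF2 with PC3) to 0.29 (PF1 with PC3), so these few values cannot settle it. With the number as a replicate block edgeR called 0 genes and 0 members, and the members' median was 0.28. With 3 libraries in each group, members of few counts such as Ciita, H2-Oa and H2-M5 give wide ranges, and a missing call does not show that levels were alike.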

Other observations

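Pseudogenes left out of the members were read as well. H2-Q5, next to H2-Q4, was higher in all PF libraries, at 5.83, 8.72 and 8.04 in PF1, PF2 and PF3 and 4.08, 3.83 and 4.17 in PC1, PC2 and PC3 (log2 difference 0.90, SE 0.20), with an adjusted p = 0.147 by edgeR and 0.0176 by DESeq2. H2-T10, close to H2-T22 and annotated as a polymorphic pseudogene, was at 2.02, 2.36 and 1.67 in PF and 1.43, 0.948 and 1.22 in PC, where H2-T22 itself overlapped. H2-K2, beside H2-K1, was at 35.7, 38.9 and 22.5 in PF and 13.1, 31.7 and 10.8 in PC, with PC2 among the PF libraries. H2-T-ps was lower in PF, at 0.519 to 0.703 against 0.715 to 1.99. These genes were chosen after their values were seen, and reads may be shared between them and the class I members.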
